A study of Sus scrofa with 4 samples.

Results

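The miRNA described here is miR-9, the most abundant annotated miRNA in 4 small RNA libraries from the hippocampus of Rongchang piglets, a Chinese pig breed. It was taken from 2 deposited tables by name. In the table of annotated pig miRNAs it stands in 3 of 326 rows, ssc-miR-9, ssc-miR-9-1 and ssc-miR-9-2. ssc-miR-9-1 and ssc-miR-9-2 each list 2937080 reads in control ventral hippocampus, for example, and ssc-miR-9 lists 2937079. The rows repeat the same reads within 0.1% and were counted once, as 1 of 321 miRNAs. In the table of conserved miRNA sequences it is the family mir-9, 33 of 2791 rows. Both groups of piglets, labelled "wide type" in genotype, came from 1 litter of 8 newborns, 4 females and 4 males. The 4 piglets of the iron group were injected in the muscle with iron dextran, at 200 mg, on days 3 and 4 of life to bring on oxidative stress. The control group of 4 received no injection. Ventral and dorsal hippocampus were taken separately and mixed within a group, which gave 1 pooled library each of iron ventral, iron dorsal, control ventral and control dorsal hippocampus. The labels do not give the age at sampling, or say whether all 4 piglets entered each pool. There is no replicate of any of these, the spread between piglets was not measured, and every comparison below is between libraries.

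miR-9 is a brain-enriched miRNA whose mature sequence is conserved across animals. Its hairpin yields a guide from the 5′ arm, miR-9-5p, and a second functional miRNA from the 3′ arm, miR-9-3p, also written miR-9*. In mouse and human neural cells miR-9-5p is known to act on the mRNAs of the progenitor regulators NR2E1 (TLX) and HES1 and of the repressor REST, and miR-9-3p on that of the REST cofactor CoREST, in circuits that steer progenitors towards neurons. A miRNA finds its targets mainly through its seed, bases 2 to 8 from the 5′ end.

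The sequences below include the entries with the most reads of each arm and most of those compared further on. They are given as in the table of conserved sequences, 5′ to 3′, with the seed in capitals. The first is a 25-base entry listed for another species. The next pair differ in the last base and are the only entries of the family listed for pig, among other species. After them comes the 5p entry shortened by a further base, and the one after it starts 1 base later, which moves its seed. Then come 3p entries listed for other species, here 23, 22 and 21 bases long, and a pair that start 1 base later. The last is the reverse complement of the 23-base 5p entry, listed as a 3p miRNA of another species and shown without capitals because of its reads, described below.
miR-9-5p, 25 bases: uCUUUGGUuaucuagcuguaugagu
miR-9-5p, 23 bases: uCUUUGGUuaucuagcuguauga
miR-9-5p, 22 bases: uCUUUGGUuaucuagcuguaug
miR-9-5p, 21 bases: uCUUUGGUuaucuagcuguau
miR-9-5p, later start: cUUUGGUUaucuagcuguauga
miR-9-3p, 23 bases: aUAAAGCUagauaaccgaaagua
miR-9-3p, 22 bases: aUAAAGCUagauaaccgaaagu
miR-9-3p, 21 bases: aUAAAGCUagauaaccgaaag
miR-9-3p, later start, 22 bases: uAAAGCUAgauaaccgaaagua
miR-9-3p, later start, 21 bases: uAAAGCUAgauaaccgaaagu
reverse complement of the 23-base 5p entry: ucauacagcuagauaaccaaaga

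The seed CUUUGGU was carried by 12 of the 33 family entries, and these held between 65.7% and 66.5% of the family's reads per library. The 3p seed UAAAGCU was carried by 7 entries with 5.32% to 6.19% of the reads. Outside the family, 1 other row of the table had the 5p seed, with at most 3 reads in a library, and 0 rows had the 3p seed. Almost all reads listed under either seed in this table are therefore in family mir-9, though part of the family's reads are in entries with neither seed.

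The libraries held 12299686 (iron ventral), 11396804 (iron dorsal), 13839541 (control ventral) and 12100973 (control dorsal) annotated miRNA reads. At these depths 3 reads, up to which an observed 0 is compatible, equal 0.217 to 0.263 CPM (reads scaled to a common total) before TMM scaling. The neuronal list of 6 miRNAs, led by miR-124a, was measured in full, at a summed level of 56711 to 69340 CPM after TMM, a scaling that centres the trimmed mean of log ratios on 0. The liver list of 3, led by miR-192 and with 2 that reached the 10 CPM at which a miRNA counted as measured, summed over all 3 to 152 CPM in iron ventral, 177 CPM in iron dorsal, 102 CPM in control ventral and 99.3 CPM in control dorsal, so it was higher in both iron libraries. Its measured members were miR-192 and miR-194a. Their log2 ratios of iron against control were 0.62 and 0.52 in ventral and 0.99 and 0.75 in dorsal hippocampus. Within the liver list, miR-122 stayed below the measured level in every library, at 4.55 to 7.80 CPM. The epithelial list of 8, of which 4 are annotated and 3 measured, summed to 127 CPM in iron ventral, 138 CPM in iron dorsal, 457 CPM in control ventral and 153 CPM in control dorsal, so the control ventral library stood apart in it. This sum is mainly that of miR-182, miR-183 and miR-96-5p, at 223, 131 and 99.5 CPM in control ventral. Of the list, miR-200a, miR-200b, miR-200c and miR-141 are not annotated and miR-429 was not measured, so the sum does not speak for them. The oligodendrocyte list ranged from 8811 CPM in iron dorsal to 13906 CPM in iron ventral, and the astrocyte list from 29947 to 35299 CPM. The muscle list summed to 916 to 1195 CPM and the erythroid list to 837 to 1075 CPM. Of the choroid plexus list only miR-204 is annotated, at 164 to 253 CPM.

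miR-9 ranked first in each of the 4 libraries. It took 18.5% of annotated reads in the iron ventral library (2271923 reads, exact Clopper-Pearson 95% interval 18.45% to 18.49%) and 16.8% in the iron dorsal library (1919957 reads, 16.82% to 16.87%). In the control libraries it took 21.2% in ventral (2937079 reads, 21.20% to 21.24%) and 18.01% in dorsal hippocampus (2179391 reads, 17.99% to 18.03%). Each iron library thus had a lower share than the control library of its region, and each dorsal library a lower share than the ventral library of its treatment. The intervals are narrow because of the depth, cover counting error only, and do not overlap between any of the libraries. The highest share was 1.26 times the lowest. In bulk tissue, fewer cells of a type and less RNA per cell cannot be told apart.

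On the TMM scale the levels lay closer together. miR-9 stood at 184262 CPM in iron ventral, 180323 CPM in iron dorsal, 202670 CPM in control ventral and 176620 CPM in control dorsal hippocampus, and the highest was 1.15 times the lowest. From high to low the order was control ventral, iron ventral, iron dorsal, control dorsal, while by share iron dorsal was below control dorsal. With no replicates, whether neighbours in this order differ beyond their spread cannot be said. Among 176 miRNAs with a mean of at least 100 CPM, miR-9 was among the steadier: its SD over the 4 libraries was 0.09 on the log2 scale, against a median SD of 0.18, and 14 had a smaller SD. Control ventral, where miR-9 was highest, was also the library in which miR-182, miR-183 and miR-96-5p of the epithelial list were high. The part of that list, or of any other marker list, in the values of miR-9 was not tested.

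**Figure D1:**
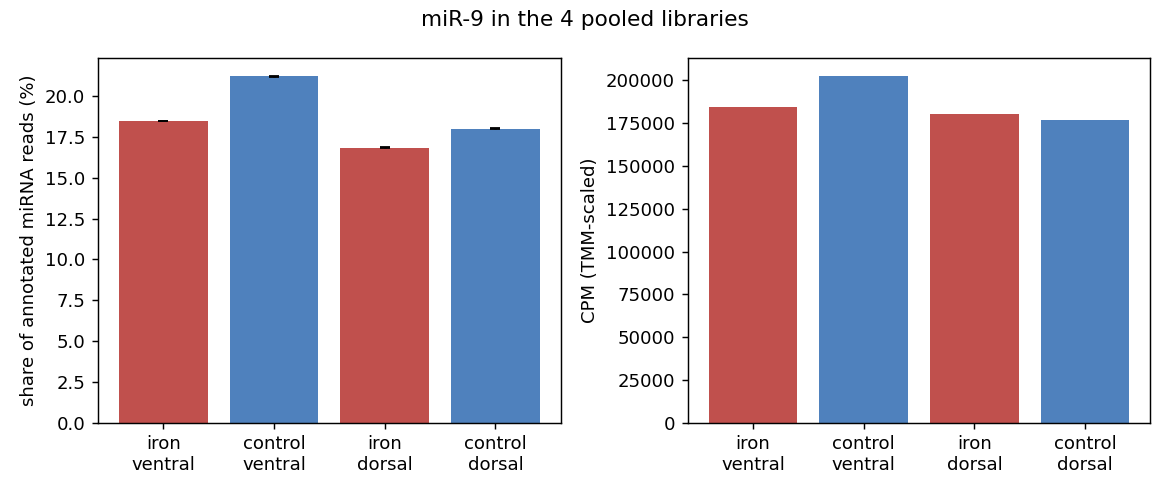
Share of annotated miRNA reads (left, %, with 95% counting intervals, barely visible) and TMM-scaled level (right, CPM) of miR-9 in each pooled library, 1 bar per library, iron in red and control in blue. The share was highest in control ventral (21.2%) and lowest in iron dorsal (16.8%), whereas on the TMM scale iron dorsal (180323 CPM) lay slightly above control dorsal (176620 CPM).

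Iron against control asks how miR-9 differs after the injections. In ventral hippocampus it stood at 184262 CPM in the iron library and 202670 CPM in the control library, a ratio of 0.909 (95% counting interval 0.908 to 0.911). This interval excludes 1, but so did that of 77.3% of the 251 measured miRNAs, those with at least 10 CPM in at least 1 library. The ratio was far from 2-fold, which 1.99% of the measured miRNAs reached in either direction with an interval that excluded 1. A larger difference in either direction was seen for 151 of the 251. The rank of miR-9 among the ratios does not depend on the scaling: 77 miRNAs had a lower and 173 a higher ratio.

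In dorsal hippocampus miR-9 stood at 180323 CPM in the iron library and 176620 CPM in the control library, a ratio of 1.02 (1.019 to 1.023). Here 77.7% of the measured miRNAs had an interval that excluded 1, 0.797% reached 2-fold, and 223 of 251 had a larger difference. In rank, 149 miRNAs had a lower and 101 a higher ratio than miR-9. The direction turned with the scaling: the ratio was 0.935 with total reads, 0.948 with the authors' RPM and 0.922 with total reads without miR-9 itself. For the family in the conserved table, which has other reads and another total, it was 0.949. Total reads in place of TMM lowered all ratios of this comparison by a log2 shift of -0.13. A direction of miR-9 with iron in dorsal hippocampus was therefore not detectable in these libraries.

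Dorsal against ventral asks how the regions differ. In control piglets miR-9 stood at 176620 CPM in the dorsal library and 202670 CPM in the ventral library, a ratio of 0.871 (0.870 to 0.873) and its largest difference in the 4 comparisons. Of the measured miRNAs 75.3% had an interval that excluded 1 and 1.99% reached 2-fold. With 117 of 251 showing a larger difference, that of miR-9 was close to the median size, 0.20 on the log2 scale beside a median of 0.19. In iron piglets the dorsal library had 180323 CPM and the ventral library 184262 CPM, a ratio of 0.979 (0.977 to 0.981), with 77.7% of intervals excluding 1, 0.797% at 2-fold or more, and 231 of 251 miRNAs showing a larger difference. The control ventral library enters both the ventral iron comparison and the control region comparison, so these are not independent.

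**Figure D2:**
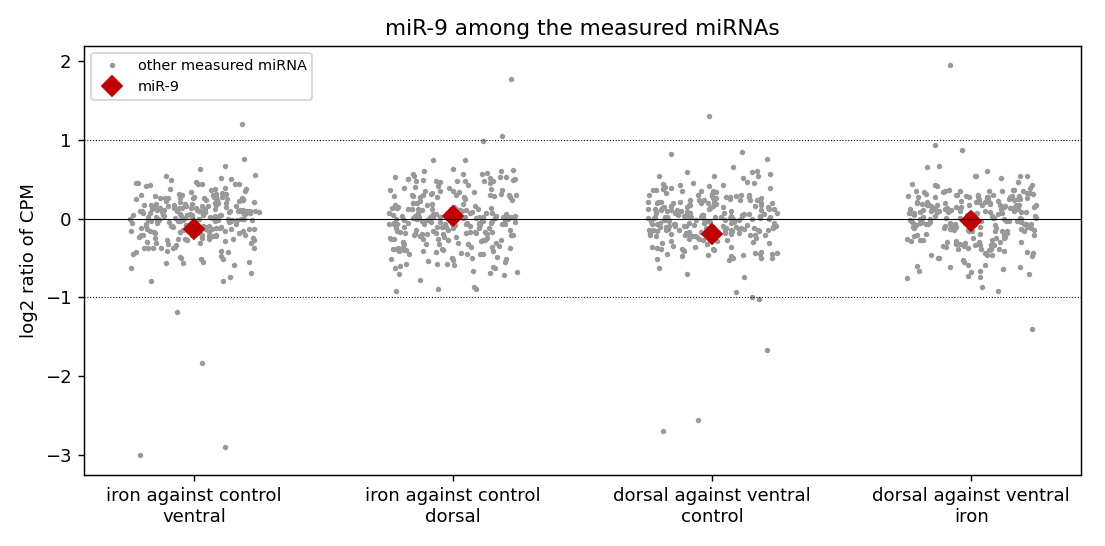
Log2 ratio of CPM of each of 251 measured miRNAs (grey points) and of miR-9 (red diamond) in the 4 comparisons; dotted lines mark 2-fold. miR-9 lay between -0.20 and 0.03, inside the bulk of the points in each comparison.

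**Figure D3:**
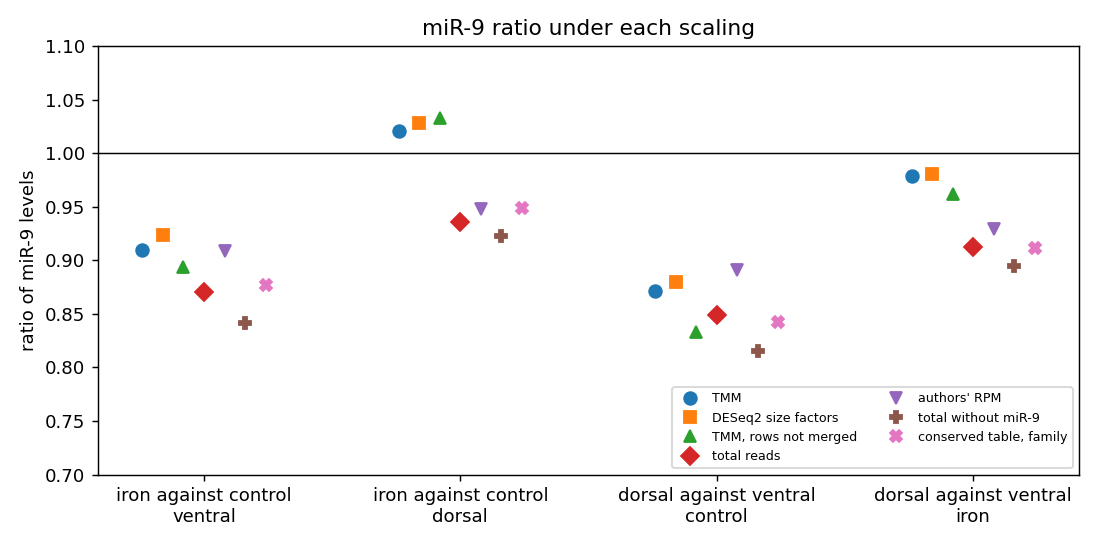
Ratio of miR-9 (vertical axis, linear, not from 0) in the 4 comparisons under 7 settings, 1 symbol each. The settings differ in scaling, and that of the conserved table also in its reads. The line marks a ratio of 1. The ratios lay below 1 in the other comparisons, from 0.815 to 0.980, but on both sides of 1 for iron against control in dorsal hippocampus, from 0.922 to 1.03.

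When all 4 libraries were fitted with 1 term each for treatment and region, the quasi-likelihood test of edgeR gave miR-9 a log2 difference of iron against control of -0.05 (SE 0.14, adjusted p = 0.992 with Benjamini-Hochberg adjustment over 251 miRNAs), lower in iron in 1 of 2 regions. For dorsal against ventral, edgeR's log2 difference was -0.11 (SE 0.14, adjusted p = 0.996), lower in dorsal in 2 of 2 treatments. In each of these tests edgeR called 0 of 251 miRNAs (0%), with 11 and 8 at an unadjusted p under 0.05. The DESeq2 Wald test called 1 and 0, limma-trend 0 and 0, and miR-9 was not among the calls of any of them. The model has 1 residual degree of freedom, and the ventral and dorsal tissue of a group is from the same animals, so these p-values describe the spread between libraries and are too small for iron.

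The reads of miR-9 per read of another miRNA of the same library need no scaling between libraries. For miR-99a, the second most abundant miRNA, they were 1.61 in iron ventral against 2.14 in control ventral, and 1.37 in iron dorsal against 1.62 in control dorsal. For miR-30e-5p, the third, they were 3.28 in iron ventral against 3.95 in control ventral, and 2.52 in iron dorsal against 3.49 in control dorsal. Set against these abundant miRNAs, miR-9 was thus lower in the iron library of both regions. Such a ratio moves with either of its miRNAs, and both of these were higher in iron on the TMM scale. Their log2 ratios in ventral and dorsal hippocampus were 0.27 and 0.28 for miR-99a and 0.13 and 0.50 for miR-30e-5p. Those of miR-9 were -0.14 and 0.03, so the ratios do not give a direction of miR-9 itself. Against miR-7 and miR-124a, the next in level, the regions went opposite ways. Per read of miR-124a, a neuronal miRNA known to act beside miR-9, there were 4.42 reads of miR-9 in iron ventral against 5.02 in control ventral, but 5.39 in iron dorsal against 4.37 in control dorsal. Per read of miR-7, which is enriched in neurons and neuroendocrine cells, there were 6.42 in iron ventral against 4.08 in control ventral and 3.43 in iron dorsal against 4.86 in control dorsal. On the TMM scale, the log2 ratios of iron against control in ventral and dorsal hippocampus were -0.79 and 0.53 for miR-7 and 0.05 and -0.27 for miR-124a. Those of miR-7 were larger in size than those of miR-9, so these ratios do not give a direction of miR-9 either.

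The miRNAs whose pattern over the 4 libraries was most like that of miR-9 were miR-339, miR-345-5p, miR-339-5p, miR-451 and miR-142-5p. Likeness was the root mean square difference of log2 CPM, each miRNA centred on its own mean, over 4 libraries and 176 miRNAs; it was 0.005, 0.018, 0.037, 0.042 and 0.053 for them. Centred in this way, miR-339 lay at -0.02 in iron ventral, -0.04 in iron dorsal, 0.13 in control ventral and -0.08 in control dorsal. miR-9 lay at -0.01 in iron ventral, -0.04 in iron dorsal, 0.13 in control ventral and -0.07 in control dorsal. Both were thus highest in control ventral and near each other in the remaining libraries. The likeness is a description over 4 points, and miR-339 and miR-339-5p may share reads.

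A list of 15 miRNAs of the neurogenesis and REST circuits in which miR-9 acts matched 13 annotated rows, 12 of them measured. Of these 12, 0 were at least 2-fold different with an interval that excluded 1, in any comparison, where 0.797% to 1.99% of all measured miRNAs were, so the count says nothing particular to the list. In ventral hippocampus 6 lay above and 6 below a ratio of 1 in iron, with a median log2 ratio of 0.00, the same as over all 251 miRNAs. In dorsal hippocampus 4 lay above and 8 below, with a median of -0.06 beside -0.02 over all. Dorsal against ventral, 7 lay above and 5 below in control piglets, with a median of 0.02 beside 0.00 over all, and 4 above and 8 below in iron piglets, with a median of -0.05 beside 0.01 over all. The log2 ratios of iron against control of miR-124a were 0.05 in ventral and -0.27 in dorsal hippocampus. Those of miR-128, a neuronal miRNA, were 0.35 in ventral and -0.44 in dorsal. miR-137, which is known to act on progenitor regulators, was at 0.00 in ventral and -0.31 in dorsal. miR-125b was at 0.00 and 0.08, and miR-218 at -0.06 and -0.04, in ventral and dorsal hippocampus. In the counts above let-7d enters with both arms. The list names miR-135a and miR-135b, which did not match the annotated miR-135, so that row is not counted. miR-135, named here after its values were seen, was at -0.16 in ventral and -0.89 in dorsal hippocampus.

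In the table of conserved sequences the family mir-9 held 2371736 reads in iron ventral, 1992507 in iron dorsal, 3059856 in control ventral and 2247366 in control dorsal. These were 19.3%, 17.6%, 22.1% and 18.6% of the reads of that table, in the same order of libraries. Single entries hold fractions of reads, while the family's totals are whole numbers, so a read appears to have been divided among the entries it matched within the family. The values do not separate the strands. The 23-base 5p entry and its reverse complement, both printed above, held 594192 and 594187 reads in iron ventral, 481313 and 481308 in iron dorsal, 757173 and 757164 in control ventral, and 569429 and 569421 in control dorsal. Among all 2791 entries there were 38 pairs of reverse complements, and in 36 of them the reads agreed within 0.1% in each of the 4 libraries, 3 of these pairs in family mir-9. Entries in the reverse orientation took 25.02% to 25.9% of the family's reads, and were counted below with the arm they are the complement of.

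Both arms of the hairpin were found, and the 5p arm was the more abundant in each library. It held 2185496 reads in iron ventral, 1836503 in iron dorsal, 2822030 in control ventral and 2096747 in control dorsal. The 3p arm held 186240 reads in iron ventral, 156004 in iron dorsal, 237826 in control ventral and 150619 in control dorsal. The share of the 3p arm was 7.85% of family reads in iron ventral (exact binomial 95% interval 7.82% to 7.89%) and 7.83% in iron dorsal (7.79% to 7.87%). It was 7.77% in control ventral (7.74% to 7.80%) and 6.70% in control dorsal (6.67% to 6.73%). The control dorsal library thus stood below the other 3, which lay within a narrow band.

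Per 5p read, the 3p arm was 1.18 times as frequent in iron dorsal as in control dorsal (95% counting interval 1.17 to 1.19, from the log odds), and 1.01 times as frequent in iron ventral as in control ventral (1.005 to 1.02). As shares of all conserved reads, the arms went opposite ways with iron in dorsal hippocampus, with ratios of 0.937 for 5p and 1.11 for 3p. In ventral hippocampus both were lower in iron, at 0.876 for 5p and 0.886 for 3p. Control dorsal against control ventral gave 0.852 (0.847 to 0.858), and iron dorsal against iron ventral 0.997 (0.990 to 1.004). Other hairpins moved as much, though by an unlike count. Their arms were read from the annotated miRNAs, those of miR-9 from the conserved sequences with reverse complements included. Among 43 annotated miRNAs with both arms measured, 21 had a larger difference in 3p per 5p than miR-9 between the iron and the control dorsal library, and their median log2 difference was 0.12, beside 0.24 for miR-9. For control dorsal against control ventral 10 of the 43 had a larger difference, and for the ventral iron comparison 40 did. When the arm was read from the name of the entry instead of its sequence, which 6 entries contradict, control dorsal was no longer the lowest: the 3p share became 32.1% in iron ventral, 31.1% in iron dorsal, 31.7% in control ventral and 31.5% in control dorsal.

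**Figure D4:**
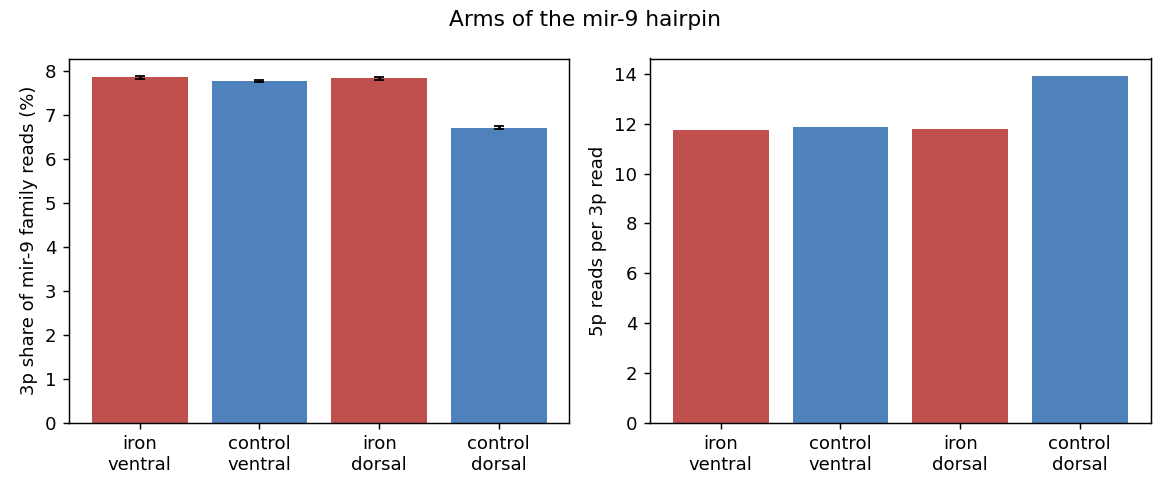
Share of the 3p arm in the reads of family mir-9 (left, %, with exact 95% counting intervals) and 5p reads per 3p read (right), 1 bar per pooled library, iron in red and control in blue. Control dorsal was lowest in 3p share (6.70%) and highest in 5p reads per 3p read (13.9), while the other libraries lay at 7.77% to 7.85% and 11.7 to 11.9.

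The 33 entries are dominated by few. Of them 15 held at least 1% of the reads of their arm in at least 1 library, 18 did not, and 3 held under 1 read in every library. Among 5p reads the 23-base entry held 27.2% in iron ventral, 26.2% in iron dorsal, 26.8% in control ventral and 27.2% in control dorsal, as did its reverse complement. A 25-base entry that contains it was close behind, at 25.8% to 26.7%. The 22-base pig entry held 11.1% in iron ventral, 11.7% in iron dorsal, 11.6% in control ventral and 11.8% in control dorsal. The entry with the later start and the moved seed held 1.34% in iron ventral, 1.67% in iron dorsal, 1.43% in control ventral and 1.36% in control dorsal. Since a read could be divided among entries of several lengths, these are shares of assigned reads, not of molecules of each length.

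Of the steps from a 5p entry to the entry 1 base shorter, the step from 22 to 21 bases varied most between libraries. The 21-base entry's share of 5p reads was 4.22% in iron ventral, 5.78% in iron dorsal, 4.49% in control ventral and 3.74% in control dorsal. Per read of the 22-base entry it had 0.381 reads in iron ventral, 0.496 in iron dorsal, 0.387 in control ventral and 0.317 in control dorsal. In the 3p arm the 21-base over the 22-base entry printed above, with the usual start, had the same order, at 0.210 in iron ventral, 0.260 in iron dorsal, 0.242 in control ventral and 0.156 in control dorsal. Iron dorsal was thus highest and control dorsal lowest in these steps of either arm. The 3p entries that start 1 base later did not show this order, with 0.370 in iron ventral, 0.351 in iron dorsal, 0.373 in control ventral and 0.372 in control dorsal. As log2 differences of iron against control in dorsal hippocampus these are 0.65 for the 5p step, 0.74 for the 3p step with the usual start and -0.08 for that with the later start. In ventral hippocampus they are -0.02, -0.20 and -0.01. The step from 23 to 22 bases in the 5p arm showed no such difference, with 0.407 in iron ventral, 0.445 in iron dorsal, 0.433 in control ventral and 0.435 in control dorsal. From 21 to 20 bases in the 5p arm, the log2 difference of iron against control in dorsal hippocampus was below 0, at -0.13. Among 49 other pairs of 21-base and 20-base entries its median was 0.41, with 39 above and 10 below 0. The remaining 3p steps with the usual start were at -0.02 from 23 to 22 bases and 0.22 from 21 to 20 bases.

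Most pairs of other entries moved the same way at the step from 22 to 21 bases in dorsal hippocampus. Among 172 other pairs of 22-base and 21-base entries, from 80 families, the log2 difference of iron dorsal against control dorsal was above 0 in 117 and below 0 in 51, with a median of 0.14, and 13 of them exceeded the 0.65 of miR-9-5p. The miR-9-5p step is described here as the step of its arm that varied most, while the other pairs were not selected by size. Its place among them is therefore a description and not a test. In iron ventral against control ventral the median was -0.01, with 67 above and 100 below 0. Entries of a family can share reads, so the pairs are not independent. These are ratios of assigned reads, not of molecules of each length. The part of this difference in assigned reads in the level of miR-9 was not tested.

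**Figure D5:**
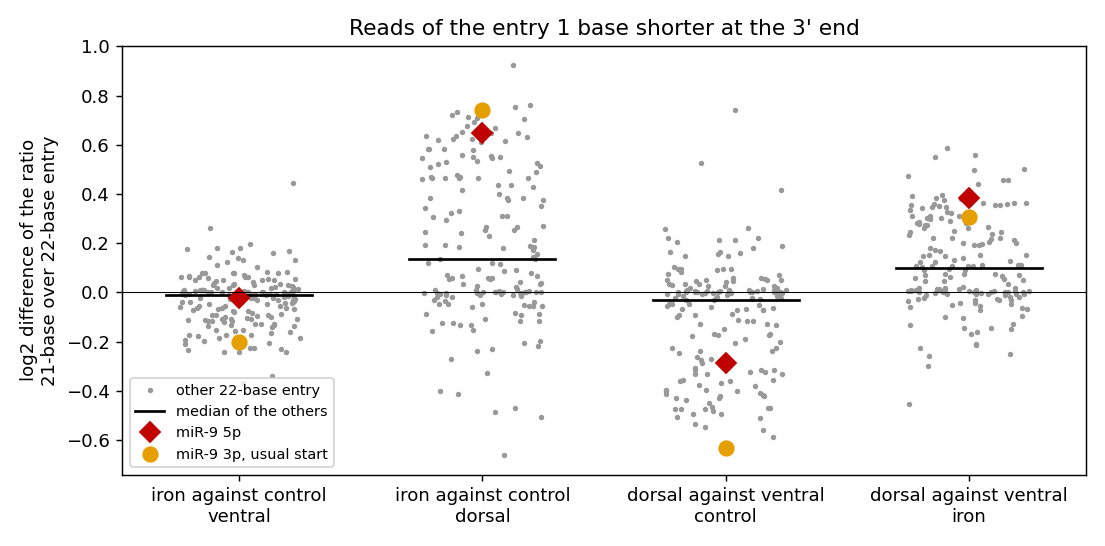
Log2 difference between libraries in the ratio of 21-base to 22-base entry reads, for 172 pairs of other families (grey, line at their median) and for miR-9-5p (red diamond) and the miR-9-3p step with the usual start (orange circle), in the 4 comparisons. These lay high in iron against control in dorsal hippocampus, at 0.65 and 0.74, where the other pairs had a median of 0.14. The miR-9-5p step is the step of its arm that varied most between libraries, so its high place is a description only. The 3p step with the later start, not drawn, was at -0.08.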

How the data were processed

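The 4 pooled libraries are described above. The submitters' processing notes name cutadapt 1.2.2, and Sscrofa 10.2 and susScr 3 as genome builds. For the aligner, the counter and the miRNA release, nothing is stated in the labels or headers read here. The read columns that the authors deposited hold estimated counts, many with decimals, named Reads in the headers; how reads were divided is not stated. They were rounded to whole numbers. The authors also deposited RPM values, per the file headers. Their divisor, computed as reads over RPM, lay within 0.1% of the summed annotated and predicted rows, repeats included, so miR-9 reads enter it 3 times. As deposited, the 3 rows made up 37.6% to 44.4% of the annotated table. Columns of per-sample values not used number 8. No annotation of the files' build was used here, so genome positions are not given.

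Libraries were scaled with TMM (edgeR 4.0.16, R 4.3.3). Ratios have exact conditional Clopper-Pearson 95% intervals, which cover counting error only, and were counted at 2-fold or more with an interval that excluded 1. The additive fit used edgeR's quasi-likelihood test over all 251 measured miRNAs (10 CPM or more in at least 1 library), with DESeq2 1.42.0 and limma 3.58.1 as alternatives. The intervals and the fit were tested on simulated data. Arms were assigned by edit distance to the 23-base 5p entry, the 22-base 3p entry and their reverse complements. Entry pairs for the read ends had at least 100 reads in every library. The text names most, not all, of the family entries with at least 1% of their arm's reads. It names the 4 next miRNAs by level, the 5 nearest in pattern, and up to 5 of the neurogenesis list by level. For the matching of that list, let-7d and miR-135 are named too. The members, the lists and the tests were chosen with earlier results of these data known, and the arm pairs, read ends and reverse complements were examined after the tables had been seen.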

Additional observations from a re-analysis of the deposited data

Results flagged for a closer look

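The iron difference of miR-9 pointed opposite ways in the regions on the TMM scale, with the dorsal log2 ratio 0.17 above the ventral one. With 1 pooled library on each side there was no test of this difference, and with total reads both ratios lie below 1.

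The iron difference in the step from the 22-base to the 21-base 5p entry was above 0 in dorsal and below 0 in ventral hippocampus, 0.67 apart on the log2 scale. This difference was not tested either, and the values of the other families stand beside it in the text.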

How the results depend on the processing

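The ratio of miR-9 stayed below 1 under all 8 alternatives for iron against control in ventral hippocampus and for dorsal against ventral in both treatments. The 4 values of each sentence that follows are, in turn, iron against control in ventral and in dorsal hippocampus and dorsal against ventral in control and in iron piglets. Total reads gave 0.870, 0.935, 0.849 and 0.912. Total reads without miR-9 gave 0.841, 0.922, 0.815 and 0.894. The family in the conserved table gave 0.877, 0.949, 0.843 and 0.912. DESeq2 size factors gave 0.923, 1.03, 0.880 and 0.980. Rows not merged gave 0.894, 1.03, 0.833 and 0.962. The authors' RPM gave 0.909, 0.948, 0.891 and 0.930. The 4 dorsal iron values below 1 reverse the TMM value. Apart from the conserved table, the miR-9 reads are the same and only the scaling differs. The conserved table differs in its reads and its total as well, and the parts of these were not separated. A filter acts after scaling and left the ratios as they were.

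miR-9 passed no test under any of 7 alternatives, with adjusted p from 0.941 to 0.993 for iron and 0.974 to 0.999 for the region. The iron test called 1 miRNA with DESeq2, 2 each with total reads, DESeq2 size factors or rows not merged, and 3 with no filter, in place of 0. The region test called 3 each with total reads, DESeq2 size factors or rows not merged, and 4 with no filter, in place of 0. Counts of miRNAs at 2-fold or more, in the order above, were 5, 2, 5 and 2. They became 9, 6, 11 and 4 with no filter and 3, 0, 2 and 0 at 100 CPM. With total reads they were 5, 4, 6 and 3, and with rows not merged 5, 3, 7 and 2. The dorsal iron calls went from 2 higher and 0 lower to 1 higher and 3 lower with total reads. In place of 251 miRNAs, 321 were kept with no filter, 182 at 100 CPM and 249 with rows not merged. Apart from the number of miRNAs kept, the cause was not tested.

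The next 2 settings were chosen after seeing the data. With sense entries alone the 3p share was 9.54% in iron ventral, 9.30% in iron dorsal, 9.34% in control ventral and 8.28% in control dorsal, with control dorsal still lowest. The 23-base entry then held 37.3% of 5p reads in iron ventral, 35.5% in iron dorsal, 36.7% in control ventral and 37.3% in control dorsal. By the names of entries the 3p share was 32.1% in iron ventral, 31.1% in iron dorsal, 31.7% in control ventral and 31.5% in control dorsal, because the reverse complement of the 5p entry is named 3p.

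The region test has a treatment term and so already compares dorsal with ventral tissue within each group of animals. For iron against control no pairing by replicate number exists, since each combination is 1 pool. Leaving out a library leaves the additive model no residual degree of freedom. Depth does not limit the miR-9 values, but the lack of replicates does.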
